A study of Homo sapiens with 4 samples.

Results

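The endoplasmic reticulum membrane complex (EMC) was examined in human neurons through the RNA levels of its 10 subunit genes, MMGT1 (also named EMC5), EMC1, EMC2, EMC3, EMC4, EMC6, EMC7, EMC8, EMC9 and EMC10. The subunits were taken by name, and all 10 were present among the 28307 gene symbols measured. MMGT1 heads the list because it was chosen by its RNA level in these same libraries, which earlier results had shown to be lower after CRISPR interference (CRISPRi), so its difference between groups is described here without a test. The other 9 were taken as its partners in the complex.

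The libraries are polyA RNA sequencing of excitatory neurons differentiated from i3N-WTC11, a line of human induced pluripotent stem cells. Every library, controls included, comes from a line in which dCas9-KRAB, a catalytically dead Cas9 fused to a repressor domain and driven by the CAG promoter, was inserted in an intron of CLYBL. The CRISPRi group (2 libraries) received lentivirus with guide RNAs aimed at a single MIR-family transposable element on chromosome 11, and the control group (2 libraries) an empty vector without a guide. Neurons of 2 weeks were transduced at a multiplicity of infection of about 3, selected for 4 days with 0.5 μg/mL puromycin and collected at day 7. Per the labels 2 guides were used per element and the replicates were biologically independent; the sources used here do not give the guide of each library or the guide sequences. All libraries derive from 1 parental line, which limits them as a model of neurons at large.

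The EMC is a conserved machine of the endoplasmic reticulum (ER) membrane that inserts transmembrane helices of newly made proteins into the lipid bilayer, among them tail-anchored proteins and the first helices of many receptors and channels. EMC3, a relative of the Oxa1 family of insertases, forms the intramembrane path together with EMC6 and MMGT1. EMC2 with EMC8 or its paralog EMC9 forms the cytosolic part, and EMC1, EMC7 and EMC10 form most of the part in the ER lumen. MMGT1 has in addition been described as a membrane magnesium transporter.

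The sequencing depth, as summed gene counts, was 44839748 for CRISPRi replicate 1, 41560282 for CRISPRi replicate 2, 944993 for control replicate 1 and 39325038 for control replicate 2. Control replicate 1 was therefore 41.6 times shallower than the shallowest of the others, and 1 count there equals 1.06 CPM (counts scaled to a common total). Over the 10 subunits the counts summed to 20494, 18888, 501 and 20430 in the same order. The neuronal markers (10 of 10 with counts in every library) summed to between 11040 and 12824 CPM, and the astrocytic markers, nearly all of them SLC1A2, to 175, 174, 145 and 89.9 CPM, with GFAP, AQP4 and ALDH1L1 below 1 CPM throughout. The pluripotent markers, mostly LIN28A, summed to 18 to 22.9 CPM, with POU5F1, NANOG, DPPA4 and TDGF1 below 1 CPM, and the mesenchymal markers to 38.1 to 53.8 CPM. Summed markers of dividing cells were at 319 CPM in control replicate 1 against 52.6 to 56.8 CPM in the other libraries.

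MMGT1 lies on chromosome X, from 135960588 to 135973988 on the minus strand (hg38), and so on another chromosome than the targeted element. The first 300 bases (100 codons) of its coding sequence are shown because they identify the RNA that differed between the groups, with the start codon in capitals. They come from GENCODE release 29 on GRCh38 (transcript MMGT1-201, 4 exons, 3738 bases in all), in which the coding sequence has 396 bases, that is 131 codons and the stop, with 388 bases of untranslated sequence before it and 2954 after it.
MMGT1: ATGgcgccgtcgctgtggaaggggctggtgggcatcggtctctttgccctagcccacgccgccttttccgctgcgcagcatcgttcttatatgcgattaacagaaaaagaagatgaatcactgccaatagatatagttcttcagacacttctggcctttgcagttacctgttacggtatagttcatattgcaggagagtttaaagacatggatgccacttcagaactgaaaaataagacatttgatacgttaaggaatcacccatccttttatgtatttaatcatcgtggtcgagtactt
Of the 3664 stretches of 75 bases in this transcript, the length of 1 read, 0 occur on either strand in a GENCODE transcript of a gene elsewhere. Reads from this transcript could thus be told from those of annotated genes that do not overlap it, and 3.25% of the stretches are shared with overlapping annotation. The transcript ends at 135962070, whereas the counted gene extends further, to 135960588. Sequence beyond the end of the transcript was not searched, so this holds only for reads within it.

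MMGT1 was low in both CRISPRi libraries and high in both controls. It had 590 and 575 counts in CRISPRi replicates 1 and 2, and 77 and 2867 counts in control replicates 1 and 2. Scaled by depth this gave 13.2 and 13.8 CPM after interference, and 81.5 and 72.9 CPM with the empty vector. Values per library are given in this order throughout. The groups did not overlap, and the shallow control library, whose 77 counts carry an exact Poisson 95% interval of 64.3 to 102 CPM, stood beside the deep one. The means were 13.5 ± 0.479 CPM in CRISPRi and 77.2 ± 6.06 CPM in controls (SD, n = 2 each), and the fitted log2 fold change was -2.47 with a standard error of 0.10, a level 5.55 times higher in the controls. MMGT1 was selected for this difference, so no p-value is attached to it. With control replicate 1, where the markers of dividing cells are high, left out, the log2 fold change was -2.43. In bulk RNA a lower level per cell and fewer cells expressing a gene cannot be told apart.

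**Figure D1:**
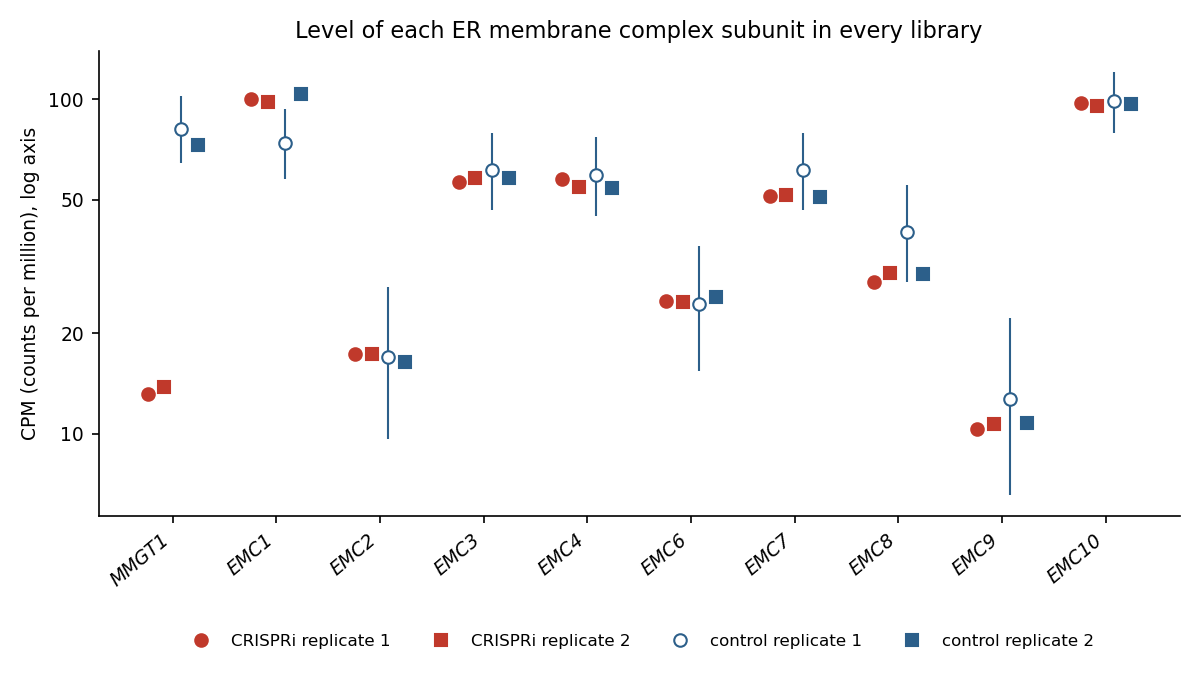
CPM of each subunit gene (log axis) in CRISPRi (red) and control (blue) libraries, 1 point per library; vertical lines are exact Poisson 95% intervals of control replicate 1, covering counting error only. MMGT1 sits at 13.2 and 13.8 CPM after interference and at 72.9 and 81.5 CPM with the empty vector, whereas the points of each of the other 9 genes lie close together, control replicate 1 excepted for EMC1, EMC7, EMC8 and EMC9.

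The remaining subunits of the membrane-spanning part were at nearly the same level in all libraries. EMC3, the Oxa1-type insertase subunit (chromosome 3, 9962680 to 10011248, minus strand), was at 56.5 and 58.2 CPM after interference and 61.4 and 58.2 CPM with the empty vector. EMC6, the small subunit that pairs with EMC3 (chromosome 17, 3668723 to 3669669, plus strand), was at 24.9 and 24.7 CPM against 24.3 and 25.7 CPM. For EMC6 the CRISPRi values lay between the control values, and for EMC3 control replicate 1 was the highest library. EMC4, which spans the membrane beside them (chromosome 15, 34225016 to 34230151, plus strand), was at 57.7 and 54.5 CPM against 59.3 and 54.3 CPM. The log2 fold changes were -0.03 for EMC3 (95% interval -0.23 to 0.17), -0.02 for EMC6 (-0.31 to 0.27) and 0.03 for EMC4 (-0.19 to 0.25).

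The cytosolic subunits also differed little between the groups. EMC2, a helical-repeat protein that holds the cytosolic part together (chromosome 8, 108443583 to 108489196, plus strand), was at 17.3 CPM in both CRISPRi libraries and at 16.9 and 16.4 CPM in the controls. Its CRISPRi values were both above the controls, yet inside the Poisson interval of the 16 counts in control replicate 1 (9.68 to 27.5 CPM). EMC8 (chromosome 16, 85778625 to 85799544, minus strand) was at 28.4 and 30.2 CPM after interference and 40.2 and 30 CPM with the empty vector. EMC9, the paralog of EMC8, was at 10.4 and 10.7 CPM against 12.7 and 10.8 CPM. In both paralogs the high value was that of control replicate 1, from 38 and 12 counts, and the other 3 libraries were alike. The log2 fold changes were 0.08 for EMC2 (95% interval -0.25 to 0.41), -0.13 for EMC8 (-0.49 to 0.23) and -0.07 for EMC9 (-0.50 to 0.37). No stretch of 75 bases is shared between the transcripts of EMC8 and EMC9, so the paralogs were counted apart. The files place EMC9 on a fix contig of chromosome 14 rather than on the chromosome itself, where RefSeq (GRCh38.p14) puts it at 24138965 to 24141591.

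The subunits with large parts in the ER lumen overlapped between the groups in every case. EMC1, the largest of them (chromosome 1, 19215661 to 19251524, minus strand), was at 99.9 and 97.9 CPM after interference and 74.1 and 104 CPM with the empty vector. EMC7 (chromosome 15, 34084018 to 34101862, minus strand) was at 51.4 and 51.8 CPM against 61.4 and 50.9 CPM. EMC10 (chromosome 19, 50476507 to 50490871, plus strand) was at 97.4 and 95.3 CPM against 98.4 and 96.9 CPM. EMC1 was low and EMC7 high in control replicate 1 alone, and the deep libraries were close to each other for both. The log2 fold changes were 0.07 for EMC1 (95% interval -0.28 to 0.42), -0.04 for EMC7 (-0.29 to 0.21) and 0.00 for EMC10 (-0.18 to 0.17).

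With p-values from edgeR's quasi-likelihood test, Benjamini-Hochberg adjusted over all 15708 genes tested, 0 of the 9 subunits other than MMGT1 were called, against 0.0255% of all genes. None had an unadjusted p under 0.05 (0.961% of all genes did), and the smallest unadjusted p was 0.456, for EMC8. The count of calls was 0 also by DESeq2 (0.0764% of all genes) and by limma-voom (0.0127%), and so was the count at an unadjusted p under 0.05 (0.942% and 1.73% of all genes). It stayed at 0 without CRISPRi replicate 1 or 2 (0.106% and 0.206% of all genes), without control replicate 1 or 2 (0.659% and 8.58%) and with the deep libraries thinned to the depth of control replicate 1 (0.0501%), where 8 of the 9 were tested, EMC9 being too low. With these shares over all genes, counts of 0 among so few genes are not a result about the complex. In the comparison of all 4 libraries at full depth all 9 were tested. Their log2 fold changes, 3 positive and 6 negative, ran from -0.13 to 0.08 with a median of -0.02, and the median of all genes tested was 0.01. The 95% confidence intervals of the 9 reached from -0.50 to 0.42 on the log2 scale, so that for each of them a halving or a doubling lies outside the interval. These intervals are wide enough to hold changes of a smaller size. In CPM the groups did not overlap for 2 of the 9, EMC2 and EMC9 being on opposite sides, against 34.3% of all genes tested.

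**Figure D2:**
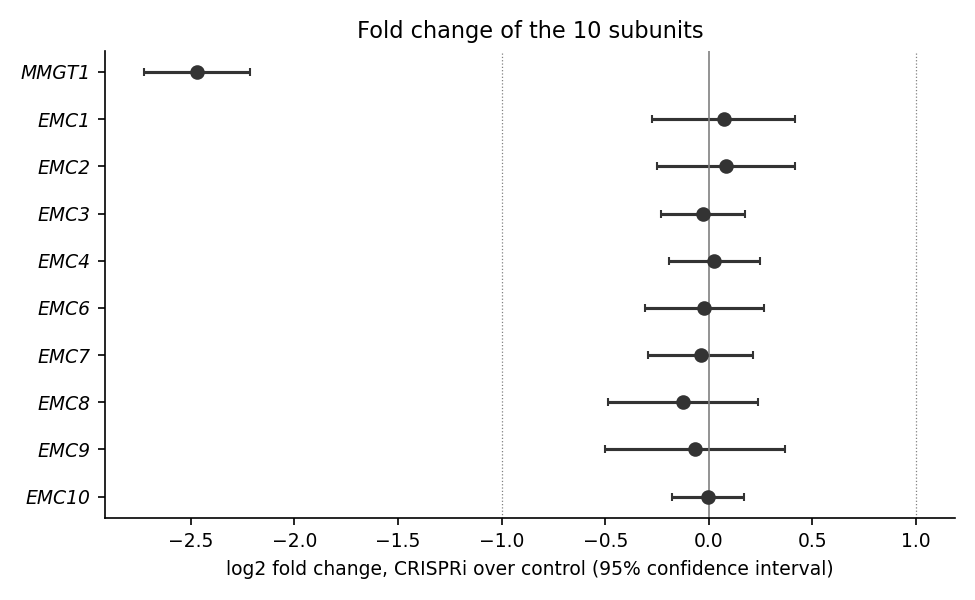
Log2 fold change of each subunit, CRISPRi over control, from the fit across all genes, with its 95% confidence interval; dotted lines mark a halving and a doubling. MMGT1 lies at -2.47, and the other 9 lie between -0.13 and 0.08 with intervals inside the dotted lines. MMGT1 was chosen for its difference, so its interval is a description and not a test.

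Set against its partners, MMGT1 made up a smaller share of the counts of the complex in the CRISPRi libraries. MMGT1 held 2.88% and 3.04% of the counts of all 10 subunits in CRISPRi replicates 1 and 2, and 15.4% and 14% in control replicates 1 and 2. The exact binomial 95% intervals, which cover counting error only, were 2.65% to 3.12% and 2.80% to 3.30% in CRISPRi, and 12.3% to 18.8% and 13.6% to 14.5% in the controls. The intervals of the groups lay far apart. The mean share was 2.96% ± 0.117 in CRISPRi and 14.7% ± 0.945 in controls (SD, n = 2 each), described without a test because MMGT1 was chosen for its difference. The counts of the other 9 summed to 444 and 441 CPM after interference and 449 and 447 CPM with the empty vector, which is 1.2% lower in CRISPRi and is described without a test. The sums did not overlap, but neither did the CPM of 34.3% of all genes tested. The sum of control replicate 1 rests on few counts, 501 with MMGT1 included, so a difference of this size is not read as a change. The sums moved far less than MMGT1.

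**Figure D3:**
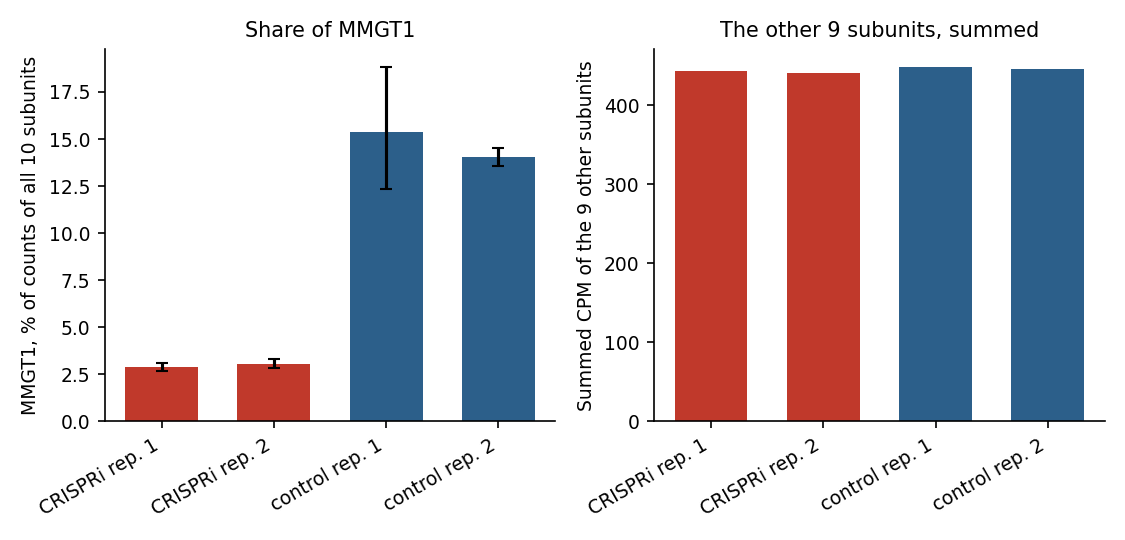
Left, MMGT1 as a percentage of the counts of all 10 subunits in each library, with exact binomial 95% intervals; right, summed CPM of the other 9 subunits, both axes starting at 0. The share is 2.88% and 3.04% in CRISPRi and 15.4% and 14% in controls, while the sum of the partners stays between 441 and 449 CPM.

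Levels of different subunits can be compared only per length, for which the FPKM values deposited by the authors were used (counts scaled by transcript length and library total; the lengths used are not given in the sources used here). EMC4 was highest, at 53.6 to 57.0 FPKM over the 4 libraries, and EMC7 followed at 46.5 to 55.6 FPKM. These ranges overlap. EMC6 came next at 32.4 to 35.7 FPKM and EMC3 at 21.2 to 22.5 FPKM, each apart from its neighbours in the order. EMC8 (14.2 to 20.1 FPKM) and EMC1 (10.8 to 15.2 FPKM) overlapped, EMC10 lay at 9.86 to 10.1 FPKM, and EMC2 was the lowest of the 8 partners, at 4.48 to 4.79 FPKM. In the controls MMGT1 stood at 15.5 and 13.9 FPKM, within the range of EMC8 and EMC1. In CRISPRi it stood at 2.51 and 2.64 FPKM and was below EMC2, the last of the 9 subunits with an FPKM in both libraries. The FPKM of MMGT1 was 0.725 and 0.748 times the median of its 8 partners in control replicates 1 and 2, and 0.14 and 0.143 times in CRISPRi replicates 1 and 2. EMC9 was listed at an FPKM of 0 in every library although it had 465, 445, 12 and 423 counts, and so has no place in this order. The count and FPKM of EMC10 correspond to a length of 9672 to 9777 bases, a long divisor that places it low in this order.

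Strand was not given for the counting, so reads from genes that overlap a subunit cannot be told apart from it. EMC6 is the most exposed, with 65.4% of its stretches of 75 bases also in the read-through gene P2RX5-TAX1BP3 on the opposite strand. That gene had 382, 382, 53 and 371 counts in the same order of libraries. Relative to depth it was highest in control replicate 1, and its fitted log2 fold change was -1.23. How many of its reads were counted as EMC6 was not tested. EMC9 shared 11% of its stretches with AL136295.2, a noncoding gene on the opposite strand, EMC10 9.13% with several genes, EMC3 4.11%, EMC1 1.97% and EMC4 1.69%. EMC2, EMC7 and EMC8 shared none. Outside the genes that overlap them, EMC10 alone shared any stretch, at 0.356%.

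The neighbours of MMGT1 on chromosome X were examined as well. FHL1, a LIM-domain protein whose start lies 173 kb away (136146702 to 136211359, plus strand), was at 107 and 98.2 CPM after interference and 95.2 and 96.5 CPM with the empty vector, which is 0.10 on the log2 scale (95% interval -0.09 to 0.30). This interval excludes a change of the size seen in MMGT1. INTS6L, MAP7D3 and ADGRG4, also within 500 kb, had few counts in control replicate 1. Scaled by depth, each was nonetheless highest in that library. INTS6L, a relative of an Integrator subunit (135520660 to 135582537, plus strand), had 216, 189, 9 and 167 counts in the same order of libraries. These are 4.82, 4.55, 9.52 and 4.25 CPM. The log2 fold change of INTS6L was -0.16 (interval -1.16 to 0.85) and became 0.15 without control replicate 1. MAP7D3, a microtubule-associated protein (136213220 to 136256482, minus strand), was at 1.49 and 1.76 CPM after interference but 8.47 and 1.91 CPM with the empty vector. ADGRG4, an adhesion receptor (136300963 to 136416890, plus strand), had 6, 8, 1 and 10 counts, or 0.134, 0.192, 1.06 and 0.254 CPM. It stood at -0.85 (interval -2.67 to 0.97), and at -0.63 without control replicate 1. The high value of MAP7D3 was in control replicate 1 alone. Its log2 fold change of -1.0 (interval -2.89 to 0.88) became -0.23 without that library and -2.35, past the threshold, without control replicate 2, when 8.58% of all genes were called.

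Of the 17 genes within 500 kb, 5 were tested and by edgeR 0 were called (0.0255% of all genes were), with 0 at an unadjusted p under 0.05 (0.961% of all genes). The calls were 0 by DESeq2 and by limma-voom too. Of the 12 not tested, 11 had 0 counts in every library, all of them members of the CT45 and SAGE families of testis antigens. Within 1 Mb, 0 of 16 tested genes were called by edgeR, again with 0 at an unadjusted p under 0.05 and 0 by DESeq2 or limma-voom. With these shares over all genes, counts of 0 among so few genes are not a result about the neighbourhood.

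**Figure D4:**
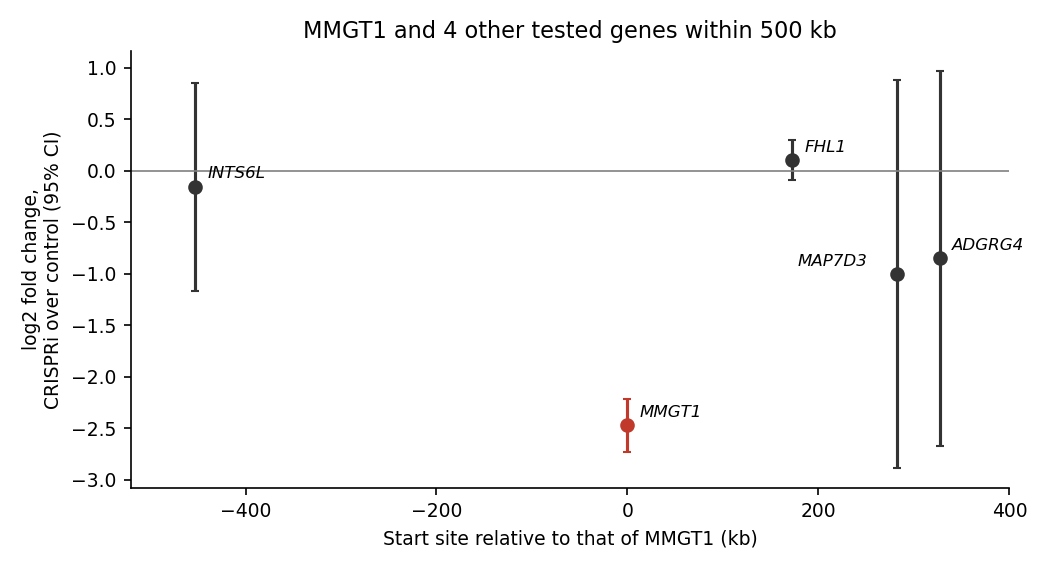
Log2 fold change, CRISPRi over control, with 95% confidence interval, of MMGT1 (red) and 4 tested genes within 500 kb, by the distance of their start site from that of MMGT1. FHL1 lies at 0.10 with a narrow interval, and the thinly covered genes have wide ones. The interval of MMGT1, which was chosen for its difference, is a description and not a test.

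The genes that work beside the EMC were taken as 7 lists of 73 genes, of which 67 were tested. None of the 67 (0) was called by edgeR, DESeq2 or limma-voom, and edgeR gave 0 of them an unadjusted p under 0.05. Over all genes the share called was 0.0255%, 0.0764% and 0.0127% by these tools, and 0.961% had such a p by edgeR, so that counts near 0 are the background for a list of this size. For 62 of the 67 the 95% interval excluded both a halving and a doubling. The share of all genes tested with such an interval is not given here, so this count is not read as a result about the lists. The SEC61 translocon, the main channel for proteins entering the ER, with its partners and the TRAP complex, had 11 of 11 genes tested (4 positive and 7 negative log2 fold changes, median -0.02). The channel subunit SEC61A1 was at 266 and 264 CPM after interference and 313 and 264 CPM with the empty vector (log2 fold change -0.09), its close relative SEC61A2 stood at 0.10 on that scale, and TRAM1, the translocating chain-associated protein, at -0.31 with an interval of -1.04 to 0.41. TRAM1 had 34 counts in control replicate 1, its highest level at 36 CPM, against 16.0 to 19.1 CPM in the others.

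The multipass translocon, which assists proteins with many transmembrane helices, had 9 of 9 genes tested (4 positive and 5 negative, median -0.05). RAB5IF, a partner of the Oxa1 relative TMCO1, was at 47.9 and 50.6 CPM after interference and 42.3 and 42.6 CPM with the empty vector. These groups did not overlap, but the log2 fold change of 0.22 had an edgeR unadjusted p of 0.0519 and an adjusted p of 1.00. Over all genes tested, the groups did not overlap in CPM for 34.3%. TMEM147 had a log2 fold change of -0.14 and NCLN, nicalin, one of -0.13. The largest value of this list, 0.69 for NOMO3, is uncertain: NOMO1, NOMO2 and NOMO3 are near-identical copies, NOMO3 had 1230, 1104, 94 and 1 counts in the same order of libraries, and the copies together were at 318 and 307 CPM after interference and 374 and 312 CPM with the empty vector. NOMO3 was chosen after its value was seen. NOMO1 (log2 fold change -0.35) and NOMO3, then against the 1 count of control replicate 2, were called without control replicate 1 (0.659% of all genes), and NOMO3 and CCDC47, a subunit of the PAT complex, without control replicate 2 (-1.85 and -0.58, with 8.58% of all genes called).

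The GET pathway, which inserts tail-anchored proteins by a route parallel to the EMC, had 7 of 7 genes tested (4 positive and 3 negative, median 0.01). Its insertase GET1, another Oxa1 relative, was at 70.2 and 70 CPM after interference and 46.6 and 70.9 CPM with the empty vector. Only control replicate 1 was low, from 44 counts, and the log2 fold change of 0.13 became 0.62, past the threshold, without control replicate 2 (8.58% of all genes called). The chaperone BAG6 stood at 0.06 on the log2 scale and the targeting ATPase GET3 at -0.04. The signal recognition particle and its receptor, which bring ribosomes to the ER, had 8 of 8 genes tested (6 positive and 2 negative, median 0.04), with SRP54 at 0.15, SRP9 at 0.09 and SRP68 at -0.17.

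Genes of magnesium transport, the other activity described for MMGT1, had 15 of 18 members tested (7 positive and 8 negative, median -0.05). NIPA2, a magnesium transporter, was at 83.9 and 86.9 CPM after interference and 64.6 and 79.5 CPM with the empty vector, which is 0.19 on the log2 scale (95% interval -0.07 to 0.45). CNNM2, a magnesium transport protein of the plasma membrane, stood at -0.33 (interval -0.91 to 0.25). MAGT1, also a subunit of an oligosaccharyltransferase complex, was at 7.4 and 7.1 CPM after interference but 38.1 and 7.12 CPM with the empty vector, so that its log2 fold change of -0.99 came from 1 library and was 0.03 without it. Without control replicate 2, MAGT1, SLC41A3 and MRS2 were called (-2.36, -0.63 and -0.52), as were 8.58% of all genes.

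Among genes for membrane proteins reported to depend on the EMC, 3 of 6 were tested (1 positive and 2 negative, median -0.04). FDFT1, squalene synthase, a tail-anchored enzyme of sterol synthesis, was at 286 and 290 CPM after interference and 284 and 313 CPM with the empty vector (log2 fold change -0.04). TMEM97, the sigma-2 receptor, stood at -0.17, and SOAT1, an acyltransferase that makes cholesteryl esters, at 0.06 (interval -0.52 to 0.64). These are RNA levels, and the amount or insertion of the proteins was not measured. ER chaperones and targets of the unfolded protein response, which is switched on by misfolded proteins in the ER, had 14 of 14 genes tested (4 positive and 10 negative, median -0.08). XBP1, a transcription factor of that response, was at 50.2 and 51.8 CPM after interference and 79.4 and 56.2 CPM with the empty vector. Its log2 fold change was -0.27 with an interval of -0.63 to 0.09, and -0.61, past the threshold, without control replicate 2 (8.58% of all genes called). The co-chaperone SDF2L1 stood at -0.41 with an interval of -1.16 to 0.34 and the chaperone HSP90B1 at -0.13. In these 3 genes control replicate 1, the library with the high markers of dividing cells, had the highest level; the part of those cells in it was not tested.

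**Figure D5:**
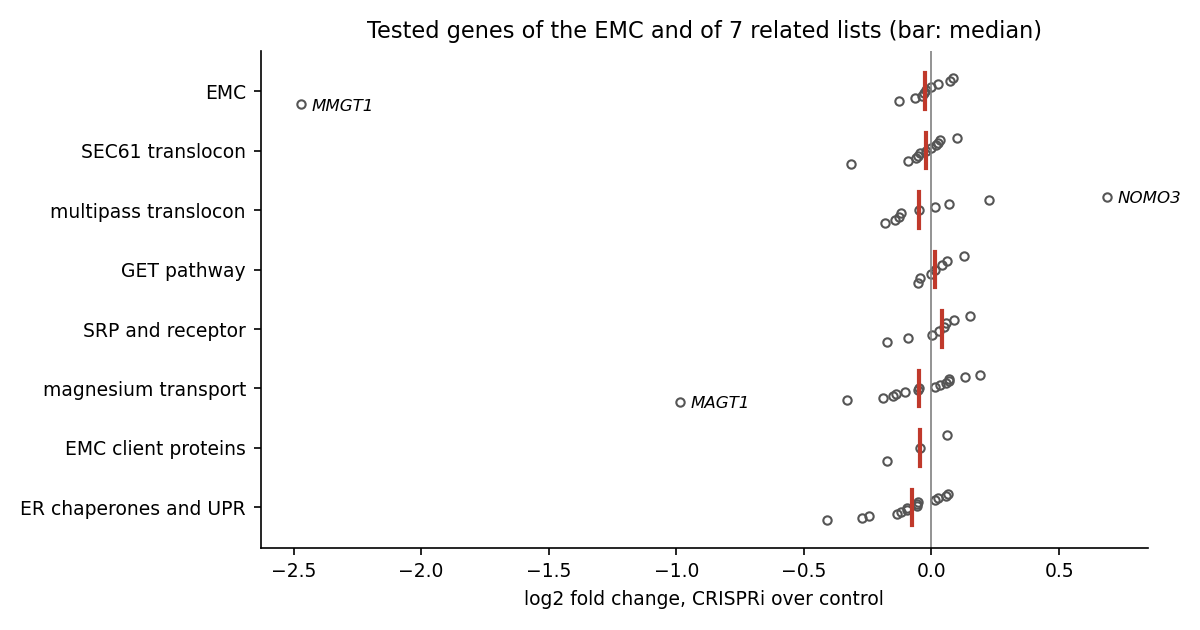
Log2 fold change, CRISPRi over control, of every tested gene of the EMC and of the 7 related lists (circles), with the median of each list as a red bar. MMGT1 lies at -2.47, and the gene names at -0.99 and 0.69 are MAGT1 and NOMO3. The value of MAGT1 rests on control replicate 1 alone. For NOMO3 the controls lie far apart, at 99.5 CPM in replicate 1 and 0.0254 CPM in replicate 2.

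The genes whose pattern over the 4 libraries was most like that of MMGT1 were found by the Euclidean distance between log2(CPM + 1) values centred on each gene's mean. The nearest of 15698 genes was UBE2G2, a ubiquitin-conjugating enzyme of ER-associated degradation (distance 0.548), at 20.3 and 20.5 CPM after interference and 80.4 and 75.8 CPM with the empty vector. C4orf3, a small membrane protein, followed (distance 0.786) at 27.7 and 32.2 CPM against 95.2 and 98.4 CPM. Both were called lower in earlier results of these data, with log2 fold changes of -1.91 and -1.69 here. KLHL26, a kelch-family protein (distance 0.893), was at 3.7 and 7.36 CPM after interference and 21.2 and 18.2 CPM with the empty vector, and MIEF2, a mitochondrial fission factor (distance 0.952), at 6.4 and 6.14 CPM against 22.2 and 17 CPM. ZNF765-ZNF761, a read-through gene whose reads may be divided with its parent genes (distance 0.934), had 4, 0, 8 and 404 counts. These are 0.0892 and 0 CPM after interference and 8.47 and 10.3 CPM with the empty vector. The median distance over all genes compared was 2.47. This likeness is over 4 libraries and follows the difference for which MMGT1 was chosen, so it is a description only.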

How the data were processed

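PolyA RNA of 4 libraries was sequenced (paired-end, 75 bp), 2 CRISPRi and 2 control. For each gene the authors deposited a whole-number read count and a value on the FPKM scale. The unit of the FPKM values was inferred from the deposited counts, since the files have no header. In each library 602 to 954 of the counted rows were listed at an FPKM of 0, and FPKM served only to order the subunits by level. Genome build hg38, edgeR and limma are named by the submitters' processing notes. Which aligner and counter were used, and whether counting used strand, is not given in the sources used here.

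Rows of the same gene symbol, those on fix and alternate contigs included, were summed, and CPM was computed on the library totals. The groups were compared with edgeR 4.0.16 (R 4.3.3): low genes were removed by filterByExpr, libraries scaled by TMM, and a robust quasi-likelihood model with a group term tested at a Benjamini-Hochberg threshold of 0.05. The F statistic gave standard errors and 95% intervals. A two-sided exact permutation test of 2 against 2 libraries has a smallest p of 0.333, so none was run. Deep libraries weigh more in the fold changes, and all libraries weigh the same in mean ± SD. The test was also tried on simulated counts with known changes. Apart from those changes, the simulated libraries shared a single mean profile. They thus lack the higher markers of dividing cells of control replicate 1, and no conclusion is drawn from them here. Sequence sharing was searched in the transcripts of GENCODE release 29. RefSeq promoter sequences matched 8 of the 10 members, not MMGT1, and none is printed.

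The members and lists were chosen with earlier results of these data known. The genes named are the 10 subunits, tested genes within 500 kb of MMGT1 (at most 8), the 3 members of each other list with the smallest p, the 5 genes of most similar pattern, and UBE2G2 and C4orf3. Some genes taken by this rule are not reported here. CCDC47, SLC41A3, MRS2, NOMO1, NOMO2 and NOMO3 were named after their values were seen. The alternatives tried were DESeq2 1.42.0, limma-voom (limma 3.58.1), scaling by median-of-ratios or total counts, a filter of 1 CPM in 2 libraries or none, the replicate number as a block, omission of each library in turn, thinning to the depth of control replicate 1, main chromosomes only, and a window of 1 Mb. Markers of neuronal, dividing, pluripotent, astrocytic and mesenchymal cells were summed per library.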

Additional observations from a re-analysis of the deposited data

How the results depend on the processing

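The log2 fold change of MMGT1, -2.47, was -2.34 after thinning to the depth of control replicate 1 and lay between -2.56 and -2.43 when any 1 library was omitted. The difference of its share of EMC counts, -11.7 percentage points, was -12 on the main chromosomes only, where EMC9 is missing, and lay between -12.4 and -11.1 when any 1 library was omitted. The count of calls among the other subunits was 0 under each of the 13 settings run for them, EMC9 being untested after thinning and on the main chromosomes only, and their median ran from -0.05 to 0.00; none of 115 values of single subunits was past the threshold, and the largest, for EMC6 after thinning, had a size of 0.458. With a library left out, calls ran from 0 to 1 near MMGT1, 0 to 2 in the multipass translocon, 0 to 1 in the GET pathway, 0 to 3 in magnesium transport and 0 to 1 in ER chaperones. These calls came without control replicate 2 (8.58% of genes called) or, for the multipass translocon, also without control replicate 1 (0.659%). The cause was not tested. Omitting a library leaves 1 in its group, whose spread is then taken from the other group. The share of all genes called is not given for every setting. Counts of 0 among so few subunits are therefore not a result about the complex.

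Signs turned for small changes that did not pass: EMC10 (0.00034 with no filter), EMC1 (-0.034), EMC7 (0.014) and SOAT1 (-0.0018) with limma-voom, and EMC8 (0.0060), RAB5IF (-0.024), BAG6 (-0.057) and GET3 (0.26) after thinning. With a library left out the ranges that crossed 0 were those of EMC1 (-0.062 to 0.45), EMC4 (-0.049 to 0.053), EMC6 (-0.042 to 0.058), EMC7 (-0.22 to 0.026), EMC10 (-0.014 to 0.010), INTS6L (-0.99 to 0.15), SEC61A1 (-0.21 to 0.0086), GET1 (-0.010 to 0.62), GET3 (-0.062 to 0.0080), FDFT1 (-0.12 to 0.052), SOAT1 (-0.084 to 0.98) and MAGT1 (-2.36 to 0.032). C4orf3 lost its call with limma-voom and with the filter of 1 CPM. Other genes of similar pattern gained a call in fits of all 4 libraries. ZNF765-ZNF761 did so with DESeq2 (0.0764% of all genes called) and with the replicate block (0.267%), and KLHL26 and MIEF2 with the replicate block. These genes were picked for their likeness to MMGT1, so their calls are a description only. The labels do not tie libraries of equal replicate number to each other, and deviations of replicates 1 of both groups correlated at -0.03 over genes. The replicate block raised the calls over all genes from 4 to 42 (0.267%), left 0 called among the other 9 subunits and the 7 lists, and gave MMGT1 a log2 fold change of -2.48. Low genes are limited by control replicate 1, in which 3.17 CPM is 3 counts.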
